A study of Mus musculus with 3 samples.

Results

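*Penk*, *Areg*, *Nrn1*, *Spp1* and *Il4i1* are 5 of the 33696 genes counted in each of 3 single-cell RNA-seq libraries of intratumoral CD8+ T cells. They encode secreted or cell-surface proteins that act between cells. The 5 genes were chosen by their measured levels in these libraries and by the cells that hold them, so every level, share and state ratio below describes the values they were selected on, and none is a test. The identifiers in the files are ENSMUSG00000045573 for *Penk*, ENSMUSG00000029378 for *Areg*, ENSMUSG00000039114 for *Nrn1*, ENSMUSG00000029304 for *Spp1* and ENSMUSG00000074141 for *Il4i1*.

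The cells were TCR transgenic pmel T cells, which recognize the melanoma antigen gp100 and carry Thy1.1, transferred into irradiated C57BL/6 mice with subcutaneous B16F10 melanoma. The libraries differ in cytokine: sIL-2 (a variant of IL-2 engineered to bind the beta chain of its receptor tightly), IL-2/21-Trikine (the same variant joined to a mutant IL-21 arm that binds the IL-21 receptor alpha chain but does not itself signal), and sIL-2 + IL-21. Cells were preconditioned in culture in the named cytokine, and mice were then dosed with the same agent in a low-dose regimen. The exception was sIL-2 + IL-21, used in culture only, after which the hosts were dosed under sIL-2. All 3 groups therefore share the transgenic receptor, the host and the tumor, and there was no untreated group. Tumors were taken 18 days after the melanoma cells were injected, and live Thy1.1+CD8+ single cells were sorted. Each treatment has 1 library, with no statement found of how many mice it holds, so no difference between treatments has a replicate check, and treatment and library cannot be told apart. Intervals are exact 95% intervals of counting error only.

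After the limits on cells, 7760 cells remained under sIL-2, 13299 under IL-2/21-Trikine and 9798 under sIL-2 + IL-21, at medians of 12882.5, 10254 and 14055.5 UMIs per cell (a UMI marks 1 captured RNA molecule). Between 18 and 41 cell barcodes were shared by any pair of libraries. The 6 T cell markers, among them *Cd3e*, *Cd8a* and *Thy1*, summed to 3417 to 4075 CPM in each library, where CPM is the share of a library's UMIs scaled as counts per 1000000. All 6 melanoma markers together reached 2.24 to 8.87 CPM, the 14 myeloid markers 27.5 to 42.1 CPM, and 4 hemoglobin genes 68.7 CPM under sIL-2 against 0.120 and 0.476 CPM in the other libraries. A level summed over a library does not separate more RNA per cell from more cells with the gene, so each level is followed by the share of cells that held it.

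As background, *Penk* encodes proenkephalin, which proteases cut into enkephalins, short peptides that activate opioid receptors. Amphiregulin, the product of *Areg*, is made as a membrane protein, is shed by the protease ADAM17 and activates the EGF receptor. *Nrn1* encodes neuritin, a small protein anchored to the membrane by a lipid. *Spp1* encodes osteopontin, a secreted glycoprotein that binds integrins and CD44, and *Il4i1* encodes a secreted oxidase of aromatic amino acids.

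To show the sequence upstream of a member, RefSeq promoter windows on GRCm38.p6 were searched. They matched 3 of the 5 genes (*Areg*, *Spp1* with 2 start sites, and *Il4i1*). Motifs were searched on both strands within 250 bases before and 50 bases after each start: the cAMP response element TGACGTCA, the AP-1 element TGANTCA, the STAT element TTCNNNGAA and the NR4A element AAAGGTCA. The only match in the 4 windows was a cAMP response element in *Areg*, which begins 61 bases before the start. That element was present in 588 of all 32851 promoter windows, or 1.79%, against 7.81% for AP-1, 8.30% for the STAT element and 1.51% for the NR4A element. The 250 bases before the *Areg* start are printed because they hold this single match, in capitals, on the plus strand of chr5:91139349-91139598.

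Areg: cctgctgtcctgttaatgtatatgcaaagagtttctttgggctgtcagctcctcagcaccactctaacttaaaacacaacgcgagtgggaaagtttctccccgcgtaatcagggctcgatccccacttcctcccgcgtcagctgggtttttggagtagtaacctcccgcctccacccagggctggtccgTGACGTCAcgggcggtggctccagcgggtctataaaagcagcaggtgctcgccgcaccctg

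A match is a description of letters and not of binding, and none of the 3 libraries measured binding or chromatin.

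*Penk* was highest under sIL-2 and lowest under sIL-2 + IL-21 by level. It reached 34.0 CPM (33.0 to 35.0) under sIL-2, 31.2 CPM (30.4 to 32.1) under IL-2/21-Trikine and 18.1 CPM (17.5 to 18.8) under sIL-2 + IL-21. The log2 ratio was -0.12 (-0.18 to -0.07) in IL-2/21-Trikine over sIL-2, 0.78 (0.72 to 0.85) in IL-2/21-Trikine over sIL-2 + IL-21 and -0.91 (-0.97 to -0.84) for sIL-2 + IL-21 over sIL-2. The share of cells did not follow this order. After each cell was thinned to 2000 UMIs, *Penk* was found in 2.16% of cells under sIL-2 (1.84 to 2.52), 2.37% under IL-2/21-Trikine (2.10 to 2.66) and 2.01% under sIL-2 + IL-21 (1.74 to 2.32), and all 3 intervals overlapped. Unthinned shares were 4.77%, 5.38% and 5.99%. Cells with any *Penk* held a mean of 12.0 UMIs under sIL-2, 7.28 under IL-2/21-Trikine and 5.19 under sIL-2 + IL-21, so the order of the levels was also that of the UMIs per positive cell.

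Few cells held most of the *Penk*. Cells with 10 or more UMIs were counted among all kept cells, before thinning. They numbered 119 of 7760 under sIL-2, 157 of 13299 under IL-2/21-Trikine and 83 of 9798 under sIL-2 + IL-21. They held 85.0%, 71.5% and 58.2% of all *Penk* UMIs in the same order. The libraries differ in cells and in depth per cell, so these counts are not compared as they stand. Single cells reached 160, 194 and 121 UMIs, while the median cell with any *Penk* had 3, 2 and 2. With each cell's *Penk* capped at 10 UMIs, the log2 ratio of IL-2/21-Trikine over sIL-2 turned from -0.12 to 0.36. That of sIL-2 + IL-21 over sIL-2 moved from -0.91 to -0.19. The cap acts on unthinned UMIs, so a deeper cell is cut at a lower CPM. Median depth was 10254 UMIs per cell under IL-2/21-Trikine, 12882.5 under sIL-2 and 14055.5 under sIL-2 + IL-21. Capped ratios, here and below, therefore carry this difference in depth, and its part in each change was not tested. Counting intervals assume independent UMIs and are too narrow for a gene held by so few cells.

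*Areg* was the most concentrated of the 5 genes. Its level was 15.3 CPM (14.7 to 16.0) under sIL-2, 9.51 CPM (9.05 to 9.99) under IL-2/21-Trikine and 7.63 CPM (7.22 to 8.06) under sIL-2 + IL-21. The 1% of cells with most *Areg* held 93.4%, 94.2% and 95.2% of its UMIs in the same order. Cells with 10 or more UMIs numbered 44 of 7760, 43 of 13299 and 37 of 9798. At equal depth, *Areg* was found in 0.867% of cells under sIL-2 (0.670 to 1.10), 0.772% under IL-2/21-Trikine (0.621 to 0.950) and 0.647% under sIL-2 + IL-21 (0.495 to 0.830). The shares stand in the order of the levels, but all 3 intervals overlapped. The log2 ratio of levels for sIL-2 + IL-21 over sIL-2 was -1.01 (-1.11 to -0.91), and it was -0.65 with *Areg* capped at 10 UMIs per cell. For IL-2/21-Trikine over sIL-2 it was -0.69 (-0.79 to -0.59), or -0.17 with the cap.

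*Nrn1* was the member that stood higher under IL-2/21-Trikine. It reached 72.7 CPM (71.5 to 74.0) there, against 37.9 CPM (36.9 to 39.0) under sIL-2 and 38.5 CPM (37.6 to 39.5) under sIL-2 + IL-21, whose intervals overlapped. The log2 ratio was 0.94 (0.89 to 0.99) over sIL-2 and, at 0.92 (0.87 to 0.96), similar over sIL-2 + IL-21. The share of cells was also highest under IL-2/21-Trikine, at 8.77% (8.26 to 9.30) after thinning, against 6.02% (5.55 to 6.52) under sIL-2 + IL-21 and 4.14% (3.70 to 4.61) under sIL-2. *Nrn1* was spread over more cells than *Penk* or *Areg*: the top 1% of cells held 30.7%, 20.5% and 20.6% of its UMIs under sIL-2, then IL-2/21-Trikine, then sIL-2 + IL-21. Capping at 10 UMIs left the log2 ratio of IL-2/21-Trikine over sIL-2 at 1.02.

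*Spp1* was the member that stood lower under IL-2/21-Trikine by more than 2-fold. Its level was 281.8 CPM (279.2 to 284.3) there, 634.7 CPM (630.4 to 639.1) under sIL-2 and 704.4 CPM (700.4 to 708.5) under sIL-2 + IL-21. The log2 ratio was -1.17 (-1.19 to -1.16) over sIL-2 and, at -1.32 (-1.34 to -1.31), lower still over sIL-2 + IL-21. At equal depth *Spp1* was found in 14.2% of cells under IL-2/21-Trikine (13.6 to 14.9), 19.3% under sIL-2 (18.4 to 20.2) and 34.4% under sIL-2 + IL-21 (33.4 to 35.3), the same order as the levels. The libraries under sIL-2 and sIL-2 + IL-21 were near each other in level, at a log2 ratio of 0.15 (0.14 to 0.16), but the share of cells was 1.78 times as high under sIL-2 + IL-21 (1.67 to 1.89).

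Much of the *Spp1* lay in cells with many UMIs. Cells with 10 or more UMIs numbered 1058 of 7760 under sIL-2, 934 of 13299 under IL-2/21-Trikine and 2328 of 9798 under sIL-2 + IL-21. They held 93.9%, 83.7% and 89.5% of *Spp1* UMIs. Cells with any *Spp1* held a mean of 26.2 UMIs under sIL-2 and 19.3 under sIL-2 + IL-21, although the median was 3 under sIL-2 and 6 under sIL-2 + IL-21. With *Spp1* capped at 10 UMIs per cell, the log2 ratio of IL-2/21-Trikine over sIL-2 shrank to -0.24, while that over sIL-2 + IL-21 was -1.06. The ratio of sIL-2 + IL-21 over sIL-2 rose with the cap from 0.15 to 0.82. These capped ratios also carry the difference in depth between libraries.

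*Il4i1* was sparse in every library. It reached 3.85 CPM (3.52 to 4.20) under sIL-2, 3.19 CPM (2.92 to 3.47) under IL-2/21-Trikine and 3.92 CPM (3.62 to 4.23) under sIL-2 + IL-21, or 501, 532 and 658 UMIs. The level was lowest under IL-2/21-Trikine, by less than 2-fold. The log2 ratio was -0.27 (-0.45 to -0.09) over sIL-2 and -0.30 (-0.46 to -0.13) over sIL-2 + IL-21. After thinning *Il4i1* was found in 0.467%, 0.547% and 0.583% of cells, with overlapping intervals, and no order is read from these shares. Cells with *Il4i1* mostly held 1 UMI, and only 5, 4 and 7 cells held 10 or more.

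**Figure D1:**
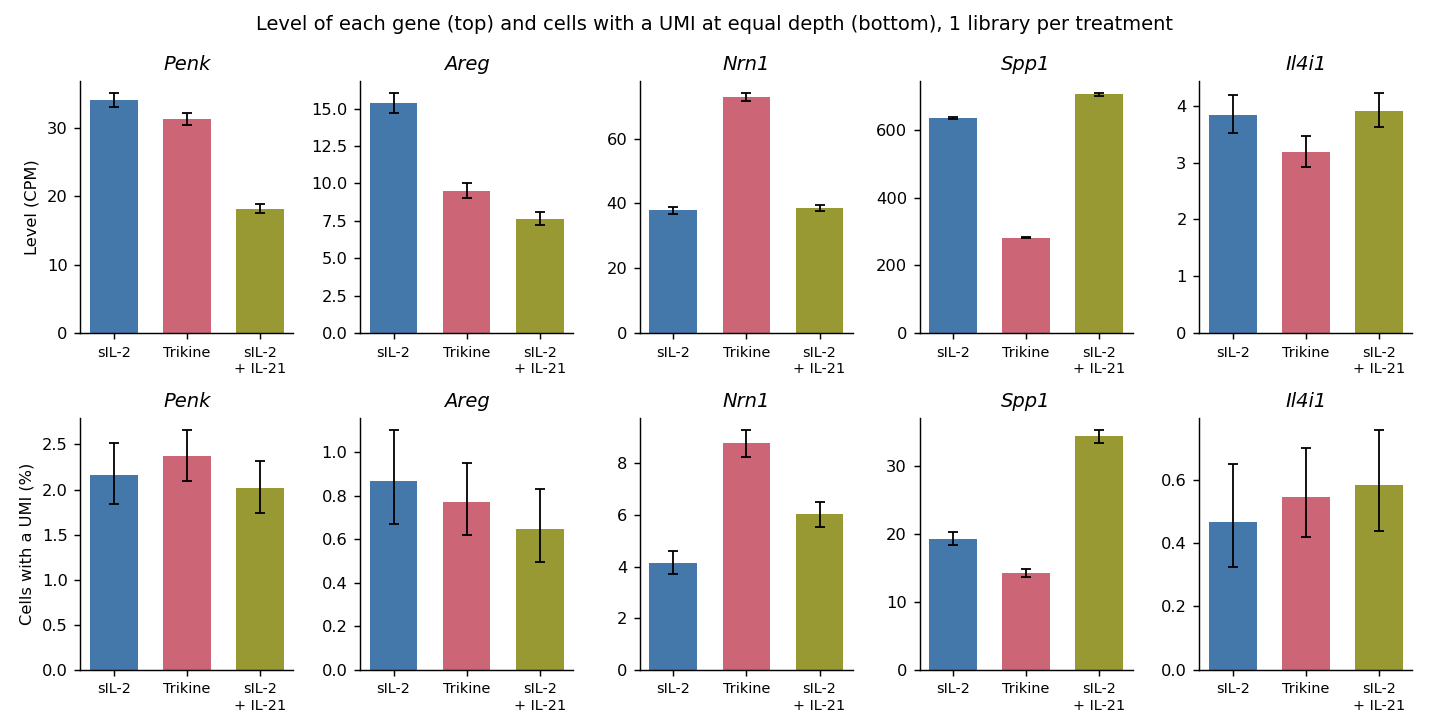
The upper row plots the level of each gene in CPM and the lower row the share of cells with a UMI after thinning to 2000 UMIs (%), both from 0, for the 3 libraries, with bars for 1 library each and lines for exact 95% counting intervals. *Nrn1* is highest and *Spp1* lowest under IL-2/21-Trikine in both rows, while the shares of *Penk* lie between 2.01% and 2.37% where its levels run from 18.1 to 34.0 CPM.

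**Figure D2:**
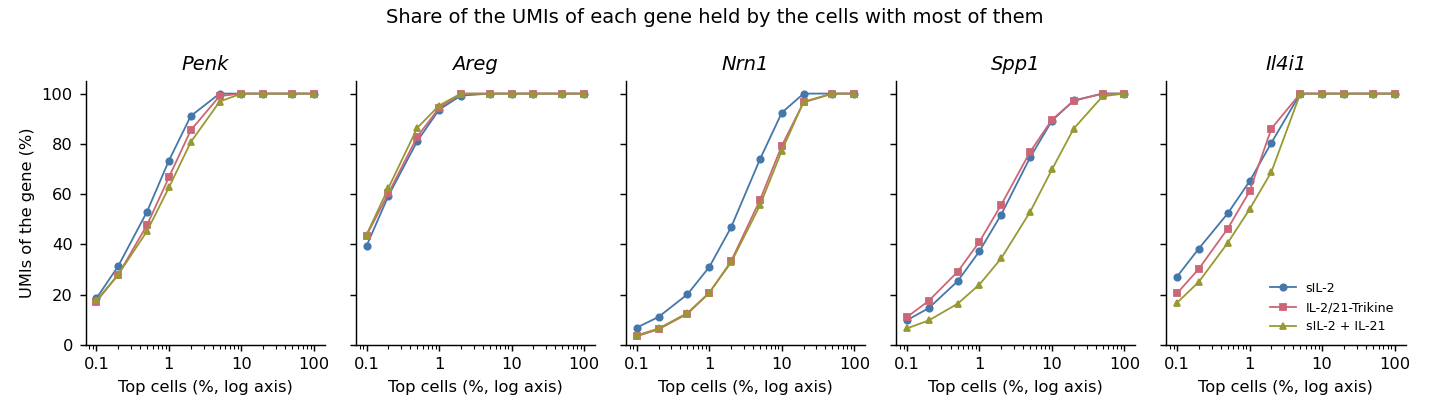
Cells were ranked by UMIs of each gene, and the percent of that gene's UMIs (vertical axis) held by the top percent of cells (horizontal log axis) is drawn as 1 line per library. *Areg* rises fastest, with over 93% of UMIs in the top 1% of cells of each library, and *Nrn1* and *Spp1* rise slowest.

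Against all genes, differences of 2-fold between libraries were rare. Among genes whose mean over a pair of libraries was 5 CPM or more, 0.136% were at least 2-fold higher and 0.839% at least 2-fold lower under IL-2/21-Trikine than under sIL-2, out of 8821. Over sIL-2 + IL-21, the IL-2/21-Trikine library was higher for 0.718% and lower for 1.05% of 8772 genes, and sIL-2 + IL-21 over sIL-2 was higher for 0.894% and lower for 1.58% of 8836 genes. *Il4i1* fell under 5 CPM, and of the other 4 members *Spp1* was past 2-fold lower under IL-2/21-Trikine in both pairs, and *Areg* was past 2-fold lower under sIL-2 + IL-21 than under sIL-2. No member was 2-fold higher in any pair. Since the members were selected on these levels, nothing is read from their counts. The median log2 ratio over the same genes was -0.08, 0.00 and -0.08 for the 3 pairs. The comparison of IL-2/21-Trikine with each other library shares the IL-2/21-Trikine cells.

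Other cell types that can make these proteins were looked for. Barcodes with at least 3 UMIs of myeloid markers numbered 125 under sIL-2, 93 under IL-2/21-Trikine and 87 under sIL-2 + IL-21, and held 6.42%, 4.04% and 1.99% of *Spp1* UMIs. Without them and without barcodes with melanoma UMIs, the *Spp1* log2 ratios of IL-2/21-Trikine were -1.15 (denominator sIL-2) and -1.35 (denominator sIL-2 + IL-21). The same myeloid barcodes held 0.25% to 3.59% of *Areg*, 1.20% to 2.00% of *Penk*, 1.18% to 2.35% of *Nrn1* and 2.74% to 3.59% of *Il4i1* UMIs. Among them were 30 barcodes with at most 2 UMIs of the CD3 genes. Of these 30, none held *Penk*, *Areg* or *Nrn1*, which allows a share of up to 10%, 1 held *Il4i1* and 10 held *Spp1* (33.3%, 17.3 to 52.8), at a median of 2781.5 UMIs per barcode. Macrophages are known to make osteopontin, so the *Spp1* share there is not a measure of free RNA. The limit of 10% lies above the shares of *Penk* and *Areg* in T cells. It also lies above those of *Nrn1* at 2000 UMIs per cell, at 4.14% under sIL-2, 8.77% under IL-2/21-Trikine and 6.02% under sIL-2 + IL-21. The unthinned *Nrn1* shares, from deeper cells, were above the limit, at 14.8%, 23.2% and 22.1% in the same order. Free RNA of these genes at the level of the thinned shares was therefore not detectable with 30 barcodes.

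The cells that hold each gene were then described by 4 state genes: *Tcf7*, a transcription factor of stem-like T cells, *Gzmd*, a granzyme of cytotoxic cells, *Nr4a1*, induced by T cell receptor signaling, and *Mki67*, a marker of proliferation. Within each library, the level of a member in cells with a UMI of the state gene was set over that in cells without one, at 2000 UMIs per cell. Ratios were also made for all genes, and a gene was counted when it was 2-fold different in the same direction in all 3 libraries, with at least 5 CPM.

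*Spp1* went with *Gzmd* in every library. Under sIL-2, *Spp1* was 1701 CPM in 574 cells with *Gzmd* and 381.1 CPM in 6920 cells without, a log2 ratio of 2.16 (2.08 to 2.23). In the IL-2/21-Trikine library it was 884.9 against 210.3 CPM, a log2 ratio of 2.07 (1.94 to 2.20), and under sIL-2 + IL-21 it was 1421 against 473.3 CPM, a log2 ratio of 1.59 (1.53 to 1.64). In shares, 50.2%, 45.7% and 59.9% of cells with *Gzmd* held *Spp1*, against 16.7%, 13.3% and 30.4% of cells without. *Spp1* was the only member among the 0.352% of 8803 genes at least 2-fold higher with *Gzmd* in all 3 libraries, and 0.591% of genes were 2-fold lower. *Gzmd* to *Gzmg* are close paralogs whose reads may not be assigned cleanly to 1 gene, so *Gzmd* is read here as a label of that granzyme group.

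*Spp1* was lower in cells with *Tcf7*. The levels with and without *Tcf7* were 176.8 and 527.6 CPM under sIL-2, 93.7 and 248.1 CPM under IL-2/21-Trikine, and 254.5 and 622.0 CPM under sIL-2 + IL-21. The log2 ratios were -1.58 (-1.74 to -1.42), -1.41 (-1.59 to -1.23) and -1.29 (-1.46 to -1.12). It was the only member among the 0.375% of genes 2-fold lower with *Tcf7* in all 3 libraries, and 0.0568% of genes were 2-fold higher. When cells were split instead by the summed UMIs of 8 stem-like genes that include *Tcf7*, the log2 ratios were -0.81, -0.93 and -0.34, so *Spp1* stayed lower but no longer by 2-fold.

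With *Nr4a1*, *Spp1* was lower by less than 2-fold in each library, at log2 ratios of -0.96 (-1.04 to -0.88), -0.50 (-0.60 to -0.40) and -0.37 (-0.44 to -0.31) for sIL-2, then IL-2/21-Trikine, then sIL-2 + IL-21. With *Mki67*, the level and the share did not move together in every library. The log2 ratios of level were -0.30, 0.07 and -0.11, whereas 27.6%, 20.8% and 38.9% of cells with *Mki67* held *Spp1* against 18.4%, 13.1% and 33.3% of cells without. The share was higher with *Mki67* in all 3 libraries, while the level was lower in the libraries of sIL-2 and of sIL-2 + IL-21, and no order is read from these.

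*Areg* went with *Nr4a1* in level. It was 21.9 CPM in cells with *Nr4a1* and 9.55 CPM in cells without under sIL-2, 14.9 and 6.89 CPM under IL-2/21-Trikine, and 10.7 and 6.19 CPM under sIL-2 + IL-21. The log2 ratios were 1.20 (0.79 to 1.61), 1.11 (0.70 to 1.53) and 0.79 (0.25 to 1.31), past 2-fold under sIL-2 and IL-2/21-Trikine but not under sIL-2 + IL-21, so *Areg* was not among the 0.341% of genes higher with *Nr4a1* by 2-fold in all 3. A share of 0.0454% of genes was 2-fold lower. In shares, 1.55% (1.13 to 2.08) of cells with *Nr4a1* held *Areg* under sIL-2, against 0.451% (0.279 to 0.688) without. Under IL-2/21-Trikine these were 1.14% (0.788 to 1.60) and 0.648% (0.490 to 0.841). Under sIL-2 + IL-21 they were 0.801% (0.476 to 1.26) and 0.598% (0.433 to 0.805), and the last 2 pairs overlapped. Only 44, 33 and 18 cells held both genes, so the counting intervals of level are too narrow here too. The order of the libraries for *Areg* with *Nr4a1* changed with the setting. At 5000 UMIs per cell the log2 ratios, in the same order, were 1.11, 1.34 and 1.58 (1.27 to 1.90), all past 2-fold. Split by a list of antigen-signal genes, they were 1.59, 0.83 and 1.89. With 2 or more *Nr4a1* UMIs required, they were 1.54, 1.32 and 0.34 (-0.71 to 1.25). No order of the libraries is read from these ratios. Of cells with 10 or more *Areg* UMIs, 68.2% (52.4 to 81.4) held *Nr4a1* under sIL-2 against 37.6% of the other cells, 44.2% (29.1 to 60.1) against 25.0% under IL-2/21-Trikine, and 32.4% (18.0 to 49.8) against 23.8% under sIL-2 + IL-21. The last interval includes the share of the other cells. The *Areg*-rich cells were also deeper, with medians of 18323.5, 13665 and 19973 UMIs against 13309, 11591 and 14551.

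With *Tcf7*, the log2 ratio of *Areg* was -1.45 (-2.47 to -0.58) under sIL-2 and -0.32 (-1.05 to 0.33) under IL-2/21-Trikine, and the first turned to 0.91 when cells were split by the stem-like gene list. *Areg* was held by 3 of 970 cells under sIL-2, 7 of 1441 under IL-2/21-Trikine and 0 of 558 under sIL-2 + IL-21, which allows a share of up to 0.538%, while 0.687% of cells without *Tcf7* held it there. The interval of that last share starts at 0.526%, so a difference was not detectable at this depth. For *Gzmd*, the log2 ratios of *Areg* were 0.81 (0.17 to 1.39), 0.52 (-0.71 to 1.53) and -0.13 (-0.95 to 0.61), and the first became -0.043 with 2 or more *Gzmd* UMIs required. For *Mki67* they were -0.54, -0.06 and -1.28, and only the interval under sIL-2 + IL-21 (-2.27 to -0.42) left out 0. It turned to 0.25 at 5000 UMIs per cell.

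The ratios of *Penk* with *Nr4a1* and *Gzmd* had different signs in different libraries, and the difference between libraries was not tested. Its log2 ratio with *Nr4a1* was 0.95 (0.68 to 1.22) under sIL-2 and 0.49 (0.24 to 0.74) under IL-2/21-Trikine, but -0.43 (-0.86 to -0.01) under sIL-2 + IL-21. Its ratio with *Gzmd* was 0.81 (0.40 to 1.21) under sIL-2, -1.27 (-2.59 to -0.22) under IL-2/21-Trikine and -0.08 (-0.59 to 0.41) under sIL-2 + IL-21. The negative ratio with *Nr4a1* turned positive under 3 other settings, at 0.27 (5000 UMIs per cell), 0.027 (a list of antigen-signal genes) and 0.14 (all UMIs of the same cells), and the negative ratio with *Gzmd* turned to 0.32 when cells were split by a granzyme gene list. These ratios rest on few cells. In the IL-2/21-Trikine library 5 cells with *Gzmd* held 7 *Penk* UMIs, and under sIL-2 16 such cells held 60. In shares, 2.79% (1.60 to 4.49) of cells with *Gzmd* held *Penk* under sIL-2, against 2.11% (1.78 to 2.48) without. Under IL-2/21-Trikine these were 1.58% (0.51 to 3.64) and 2.39% (2.12 to 2.69). With *Nr4a1* the shares were 2.58% against 1.91% under sIL-2, 2.67% against 2.27% under IL-2/21-Trikine and 1.65% against 2.13% under sIL-2 + IL-21. The intervals of each of these pairs of shares overlapped. With *Mki67*, *Penk* was 12.1 CPM against 33.6 CPM under sIL-2, a log2 ratio of -1.48 (-2.24 to -0.80), -0.16 under IL-2/21-Trikine and -0.22 under sIL-2 + IL-21, where the intervals included 0. Under IL-2/21-Trikine the share went the other way, at 3.08% of cells with *Mki67* against 2.25% without, and no order is read there. The *Mki67* ratios changed with the setting. At 5000 UMIs per cell they were -1.23 under sIL-2, -0.21 (-0.39 to -0.03) under IL-2/21-Trikine and -0.35 (-0.59 to -0.13) under sIL-2 + IL-21. Split by a list of proliferation genes, they were -0.71, -0.11 and 0.13 in that order. With *Tcf7*, *Penk* was 12.9 against 34.3 CPM under sIL-2, a log2 ratio of -1.41 (-2.05 to -0.83). In the others the ratio was -0.34 under IL-2/21-Trikine and -0.54 under sIL-2 + IL-21, and these intervals included 0. At 5000 UMIs per cell the ratios, in the same order, were -1.08 (-1.33 to -0.84), -1.02 (-1.24 to -0.81) and -0.75 (-1.17 to -0.36). Split by the stem-like gene list, they were -0.24, 0.13 and 0.20.

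*Nrn1* differed by less than 2-fold in level by state. Its 12 ratios lay between -0.57 and 0.28, and with *Gzmd* all 3 intervals included 0. With *Mki67* all 3 ratios were above 0, at 0.28, 0.21 and 0.24, and the interval left out 0 under IL-2/21-Trikine (0.01 to 0.41). Of genes, 3.32% were 2-fold higher with *Mki67* in all 3 libraries and 0.227% were 2-fold lower, and no member was among them. With *Nr4a1*, *Nrn1* was -0.06, -0.39 and -0.36, and the intervals of the last 2 left out 0, although the third became 0.00070 at 5000 UMIs per cell. With *Tcf7* it was -0.57 (-1.08 to -0.10), -0.43 (-0.69 to -0.18) and 0.03 (-0.44 to 0.47), and by the stem-like gene list 0.13, 0.0040 and 0.18.

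*Il4i1* had too few UMIs at this depth to order the states. Its log2 ratio with *Nr4a1* was 1.04 (0.25 to 1.80) under sIL-2 + IL-21, from 25 UMIs in cells with *Nr4a1* and 39 in cells without, and the intervals of the other libraries included 0. With *Mki67* it was -1.46 (-3.13 to -0.15) in the same library, from 5 and 59 UMIs. All other intervals of *Il4i1* included 0.

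**Figure D3:**
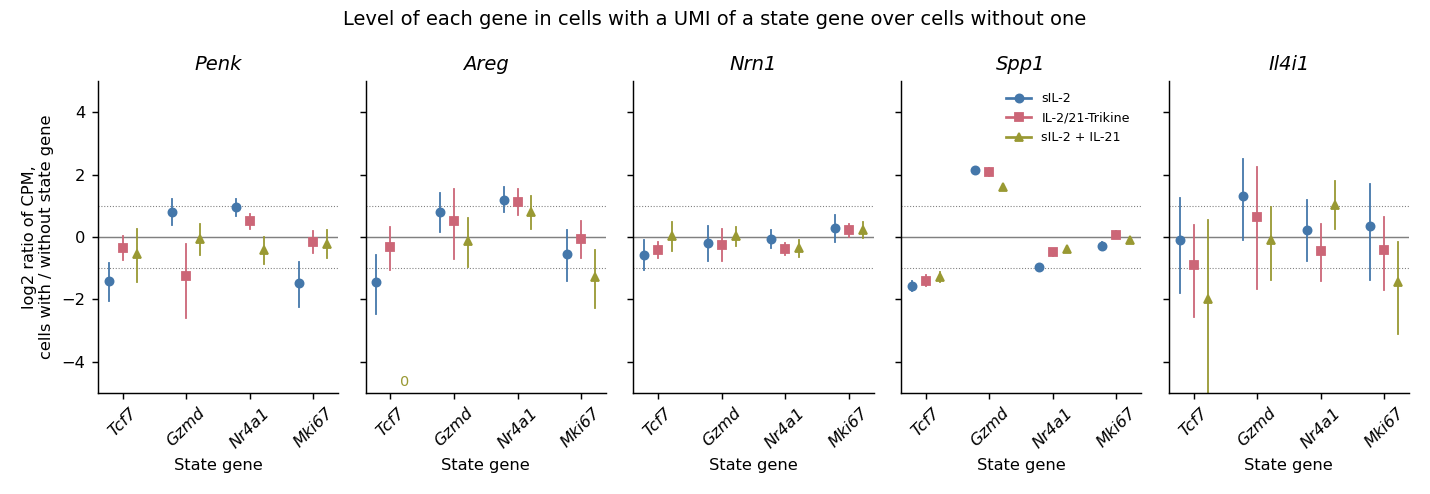
Each point is the log2 ratio of CPM of a gene in cells with over cells without a UMI of the state gene on the horizontal axis, 1 color per library, with 95% counting intervals, cut at the lower edge for *Il4i1* with *Tcf7*, and 0 marks no *Areg* UMIs with *Tcf7*. Dotted lines mark 2-fold. *Spp1* is past them with *Gzmd* (1.59 to 2.16) and *Tcf7* (-1.58 to -1.29) in all 3 libraries, *Areg* is above 0 with *Nr4a1*, and *Penk* with *Gzmd* and *Nr4a1* changes sign between libraries.

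The libraries also differ in how many cells hold each state gene, so levels were compared within cells split by each state gene. *Gzmd* was found in 2.75% of cells under IL-2/21-Trikine, 7.66% under sIL-2 and 13.4% under sIL-2 + IL-21 after thinning. Before thinning, over all kept cells, the shares were 5.80%, 16.1% and 26.7%. Cells counted as without *Gzmd* therefore still included cells that held it, unequally by library. The split does not make the libraries equal in state. Among cells with *Gzmd*, the log2 ratio of *Spp1* in IL-2/21-Trikine over sIL-2 was -0.94 (-1.08 to -0.81), and among cells without it was -0.86 (-0.91 to -0.80). Over sIL-2 + IL-21 these were -0.68 and -1.17. Within cells with *Tcf7* the same ratios were -0.92 and -1.44, and within cells without *Tcf7* -1.09 and -1.33. In all 8 kinds of cells the *Spp1* level was lowest under IL-2/21-Trikine. These kinds come from splitting the same cells of each library by each of the 4 state genes. They overlap and are not 8 separate results. *Spp1* under sIL-2 + IL-21 stood over sIL-2 in 7 of the 8 and under it in cells with *Gzmd*, at -0.26.

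*Nrn1* under IL-2/21-Trikine stood above sIL-2 in all 8 overlapping kinds of cells, at log2 ratios of 0.85 to 1.24, and above sIL-2 + IL-21 at 0.30 to 0.76. The smallest of these was in cells with *Tcf7*, where *Nrn1* was 48.6 CPM under IL-2/21-Trikine and 39.4 CPM under sIL-2 + IL-21. Its interval (-0.20 to 0.82) included 0, as did that in cells with *Gzmd*, at 0.45 (-0.15 to 1.03). *Penk* for sIL-2 + IL-21 over sIL-2 ran from -1.78 (-2.21 to -1.36) in cells with *Nr4a1* to 0.27 (-0.53 to 1.13) in cells with *Mki67*. The last interval included 0 and rests on 18 *Penk* UMIs under sIL-2.

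**Figure D4:**
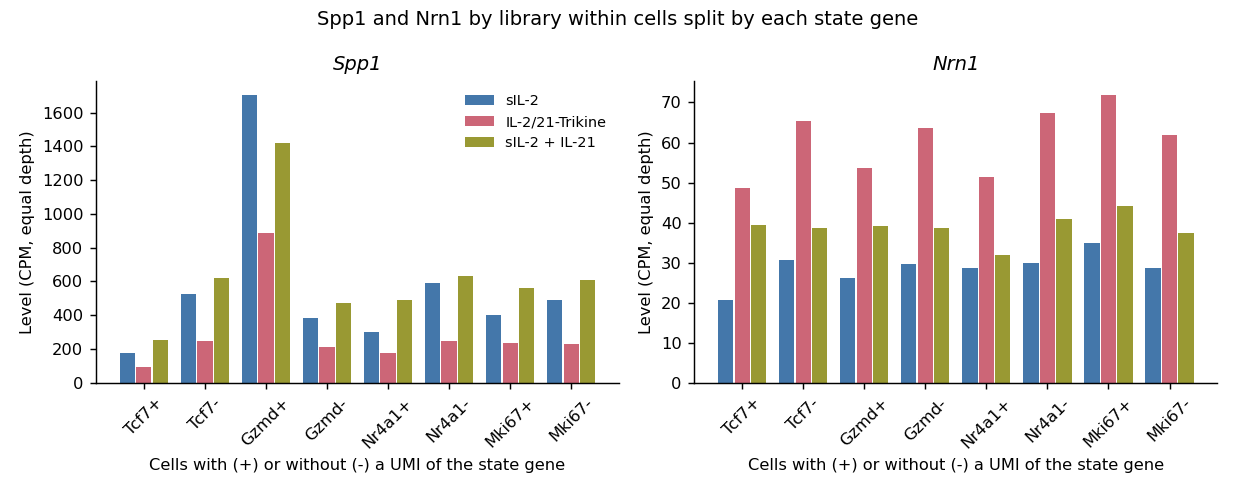
Bars give the CPM of *Spp1* and *Nrn1* at 2000 UMIs per cell, from 0, in cells with (+) and without (-) a UMI of each state gene, 1 bar per library and with no error drawn. IL-2/21-Trikine is lowest for *Spp1* and highest for *Nrn1* in all 8 overlapping kinds of cells, and *Spp1* with *Gzmd* reaches 884.9 to 1701 CPM.

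All 10 pairs of members were looked at in the same cells. *Nrn1* and *Spp1* shared cells: 26.5% of *Nrn1* cells held *Spp1* under sIL-2 (21.6 to 31.7) against 19.0% of the other cells, 23.0% (20.5 to 25.8) against 13.4% under IL-2/21-Trikine, and 47.9% (43.7 to 52.1) against 33.5% under sIL-2 + IL-21. *Penk* cells held *Spp1* in 29.6% (22.7 to 37.3), 17.6% (13.3 to 22.6) and 44.2% (37.0 to 51.6), against 19.1%, 14.2% and 34.2% of the other cells. *Areg* cells held *Spp1* in 24.6%, 25.8% and 52.5%, against 19.3%, 14.1% and 34.2%, and the interval under sIL-2 (14.8 to 36.9) included the share of the others. *Areg* and *Penk* were found together in 3 cells under sIL-2, 9 under IL-2/21-Trikine and 0 of 190 *Penk* cells under sIL-2 + IL-21, which allows up to 1.58%. Independent genes would share 1.41, 2.11 and 1.23 cells. Under IL-2/21-Trikine, 3.30% of *Penk* cells (1.52 to 6.17) held *Areg* against 0.711% of the others, and under sIL-2 it was 1.85% (0.384 to 5.32) against 0.846%, where the interval included the share of the others. No cell held both *Areg* and *Il4i1*, out of 65, 89 and 61 *Areg* cells, which allows up to 4.62%, 3.37% and 4.92%. Independent genes would share 0.30, 0.49 and 0.36 cells here, so nothing is read from their absence.

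*Cd83*, an activation marker, was found in 16.0% of *Penk* cells against 5.03% of the others under sIL-2, 17.9% against 6.79% under IL-2/21-Trikine and 18.9% against 9.09% under sIL-2 + IL-21. *Il4i1* cells held *Cd83* in 28.6%, 36.5% and 29.1%, against 5.16%, 6.89% and 9.17%. *Cd81*, a tetraspanin named here outside the rule for named genes and with earlier results known, was found in 6.79%, 3.66% and 6.84% of *Penk* cells, against 0.805%, 1.20% and 3.40%. It was not particular to them. *Nrn1* cells held *Cd81* in 2.58%, 2.97% and 5.81%, against 0.863%, 1.09% and 3.32%. *Spp1* cells held it in 1.66%, 2.86% and 5.31%, against 0.761%, 0.992% and 2.50%. In *Areg* and *Il4i1* cells its share was not on the same side of the others in every library. *Cd83* was also found in 12.9%, 9.59% and 15.5% of *Nrn1* cells, against 4.94%, 6.81% and 8.89%.

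The genes most like each member were ranked by the smallest of the 3 log2 ratios (5 CPM added to each side) between cells with and without the member, among genes with at least 20 CPM. For *Penk* they were *Ccl1*, a chemokine, *Cd70*, the ligand of CD27, *Crtam*, an adhesion receptor, *Zeb2*, a transcription factor, and *Cd83*. *Ccl1* was 6978 CPM in *Penk* cells and 1427 CPM in the others under sIL-2, 3385 and 1098 CPM under IL-2/21-Trikine, and 2984 and 1154 CPM under sIL-2 + IL-21.

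*Areg* shared *Ccl1* at the top of its list, at log2 ratios of 1.19, 1.17 and 0.96, followed by *Ccrl2*, *Tnfsf9*, *Hilpda* and *Ap1g1*. *Tnfsf9*, the ligand of 4-1BB, was 162 CPM in *Areg* cells against 43.9 CPM under sIL-2, 112 against 30.2 CPM under IL-2/21-Trikine and 65.6 against 41.1 CPM under sIL-2 + IL-21. For *Il4i1* the list was *Cd83*, *Csf2*, *Ccl1*, *Dusp14* and *Cd70*. *Csf2*, which encodes the cytokine GM-CSF, reached 2600 CPM in *Il4i1* cells against 486 CPM under sIL-2, 1016 against 286 CPM under IL-2/21-Trikine and 2445 against 548 CPM under sIL-2 + IL-21. *Ccl1* thus stands in the lists of *Penk*, *Areg* and *Il4i1*, and *Cd70* and *Cd83* in those of *Penk* and *Il4i1*.

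*Nrn1* was most like *Spp1*, *Ntrk3*, *Slc17a6*, *Nrgn* and *Pkp4*. *Slc17a6* encodes a vesicular glutamate transporter, *Ntrk3* a neurotrophin receptor and *Nrgn* a calmodulin-binding protein of neurons. *Nrgn* was 205 CPM in *Nrn1* cells against 91.2 CPM under sIL-2, 227 against 113 CPM under IL-2/21-Trikine and 375 against 256 CPM under sIL-2 + IL-21. *Spp1* was most like *Gzmd*, *Gzmg*, *Gzme*, *Serpinb9b* and *Gzmf*, 4 granzymes of 1 cluster of paralogs and a serpin. *Serpinb9b* was 372 CPM in *Spp1* cells against 114 CPM under sIL-2, 380 against 88.6 CPM under IL-2/21-Trikine and 477 against 183 CPM under sIL-2 + IL-21. At a minimum of 100 CPM in place of 20, 3 of the 5 genes stayed listed for *Penk*, 2 for *Areg*, 2 for *Nrn1*, 4 for *Spp1* and 2 for *Il4i1*.

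**Figure D5:**
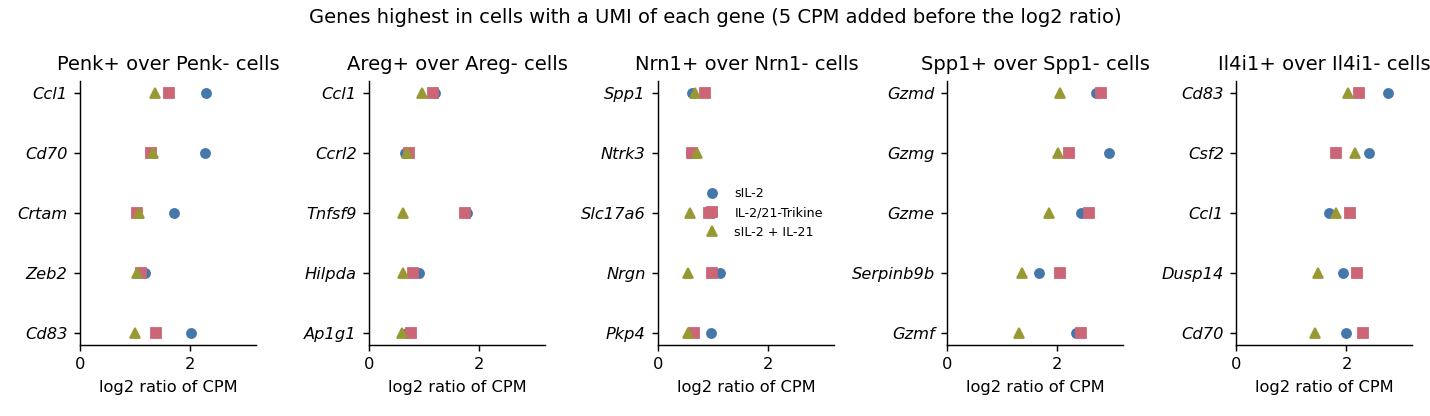
For each member, the 5 genes ranked highest in its cells are listed from the top, with the log2 ratio of CPM (5 CPM added) in cells with over cells without the member, 1 symbol per library. The granzymes *Gzmd*, *Gzmg* and *Gzme* in *Spp1* cells lie between 1.85 and 2.94, and the genes of the *Nrn1* list between 0.53 and 1.12.

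The partners of each member were taken from lists of their pathways. Of 12 opioid genes beside *Penk*, 9 were under 1 CPM in each library, among them *Pdyn*, *Oprd1*, *Oprk1*, the convertases *Pcsk1* and *Pcsk2*, and *Cpe*. The protease *Furin* and the mu opioid receptor gene *Oprm1* passed 5 CPM. *Oprm1* was 10.3 CPM under sIL-2, 11.2 CPM under IL-2/21-Trikine and 5.25 CPM under sIL-2 + IL-21, and with a log2 ratio of 1.09 in IL-2/21-Trikine over sIL-2 + IL-21 it was the only 1 of these 2 past 2-fold in any pair. The median log2 ratio of the pair was -0.34, 0.47 and -0.81 in IL-2/21-Trikine over sIL-2, IL-2/21-Trikine over sIL-2 + IL-21 and sIL-2 + IL-21 over sIL-2. Intronic reads were counted, so these values need not be mature transcripts.

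Of 14 EGF genes beside *Areg*, 8 were under 1 CPM in each library, including the receptor *Egfr* and the ligands *Ereg*, *Btc* and *Epgn*. The shedding proteases *Adam17* (33.9 to 39.7 CPM) and *Adam10*, the ligand *Hbegf* (8.93 to 16.5 CPM) and the ADAM17 regulator *Rhbdf2* passed 5 CPM, and none of the 4 differed 2-fold between any libraries. The median log2 ratio of the 4 was -0.44 in IL-2/21-Trikine over sIL-2, -0.40 over sIL-2 + IL-21 and -0.20 for sIL-2 + IL-21 over sIL-2.

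Of 10 genes listed with *Nrn1* for T cell anergy, 8 were measured at 5 CPM or more in IL-2/21-Trikine over sIL-2, with a median log2 ratio of -0.40, a lowest of -0.71 and a highest of 0.69, and none 2-fold different. *Nt5e*, the ectoenzyme CD73, was 30.5 CPM under sIL-2, 18.6 CPM under IL-2/21-Trikine and 6.31 CPM under sIL-2 + IL-21, the single gene past 2-fold in the other pairs among the 7 that reached 5 CPM there, at log2 ratios of 1.56 in IL-2/21-Trikine over sIL-2 + IL-21 and -2.27 for sIL-2 + IL-21 over sIL-2. The list medians there were 0.34 and -0.83 over 7 genes. Over all genes, 0.718% were 2-fold higher in IL-2/21-Trikine over sIL-2 + IL-21, and 1.58% were 2-fold lower in sIL-2 + IL-21 over sIL-2. *Izumo1r* missed the 5 CPM minimum in these pairs. It was 6.23 CPM under IL-2/21-Trikine, 3.86 CPM under sIL-2 and 2.98 CPM under sIL-2 + IL-21. Its log2 ratio was 1.06 (0.91 to 1.22) in IL-2/21-Trikine over sIL-2 + IL-21. *Egr2* and *Egr3*, induced by T cell receptor signaling, and *Cblb*, a ubiquitin ligase that restrains it, were highest under sIL-2, at 17.7, 46.3 and 487 CPM.

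The osteopontin receptor genes *Cd44*, *Itgav*, *Itgb1*, *Itgb3* and *Itga4* passed 5 CPM in every pair, out of 8 listed, and none was 2-fold different. Their median log2 ratio was -0.38, 0.13 and -0.52 for the 3 pairs in the order given above. *Cd44* was 214 CPM under sIL-2, 173 CPM under IL-2/21-Trikine and 157 CPM under sIL-2 + IL-21, and *Itgav* was 386, 198 and 234 CPM. Of 13 genes for the breakdown and sensing of aromatic amino acids, 9 were under 1 CPM in each library, among them *Ido1*, *Tdo2* and *Kynu*. The aryl hydrocarbon receptor gene *Ahr* was 6.26, 6.09 and 4.11 CPM, its target *Tiparp* 34.5, 26.5 and 24.1 CPM, and the amino acid transporter *Slc7a5* 36.9, 36.7 and 47.4 CPM, with none of the 4 measured genes 2-fold different. Their medians were -0.13, 0.09 and -0.39.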

How the data were processed

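The deposited values were unnormalized UMI counts of each gene in each called cell, in 3 libraries (10x 3′ Gene Expression v3.1), which the authors made with Cell Ranger 9.0.0, counting intronic reads. The methods give a GRCm39 reference while the labels list mm10, so no coordinates of the counted genes are given. Here, cells with 500 to 120000 UMIs and at most 20% mitochondrial UMIs were kept (30857 cells).

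Levels were UMIs summed over a library, as CPM, with exact Poisson intervals. Shares had exact binomial (Clopper-Pearson) intervals, and ratios exact conditional intervals, all at 95%. With 1 library per treatment no test was run and no p-value is given. For shares and state ratios each cell was thinned to 2000 UMIs with a fixed seed, leaving out shallower cells (266 under sIL-2, 1775 under IL-2/21-Trikine, 364 under sIL-2 + IL-21). A count of 0 was given a limit of 3 counts. Doublets were not called, and an alternative left out the 5% deepest barcodes. Cells were not clustered. The Cd3-poor reference barcodes held at least 3 UMIs of 11 myeloid genes and at most 2 of *Cd3e*, *Cd3d* and *Cd3g*, and were defined after the data were seen.

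The members, state genes and lists were chosen with earlier results of these data known. Named genes were the members, the 4 state genes, the listed pathway genes and, for each member, the 5 genes with the highest smallest-of-3 log2 ratio, leaving out receptor and immunoglobulin segments and mitochondrial genes. Library ratios over all genes and the thinning were checked on data made with known answers, and the other steps were not. The ratio check drew independent counts, so it does not show that the intervals hold for genes held by few cells. Software was Python 3.11.15, matplotlib 3.10.9, pandas 2.3.3, scipy 1.17.1 and numpy 2.4.6. Library depth was 130200802 UMIs under sIL-2, 166772854 under IL-2/21-Trikine and 168041089 under sIL-2 + IL-21.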

Additional observations from a re-analysis of the deposited data

Results flagged for a closer look

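*Penk* stood in opposite directions in different libraries for a pair of state genes, with counting intervals that left out 0 on both sides. In cells with over cells without *Gzmd*, the log2 ratio of *Penk* was 0.81 under sIL-2 and -1.27 under IL-2/21-Trikine. For *Nr4a1* it was 0.95 under sIL-2 and 0.49 under IL-2/21-Trikine, against -0.43 under sIL-2 + IL-21. The difference between libraries was not tested, since each treatment has 1 library. *Penk* UMIs lay in few cells, so these counting intervals are too narrow. The shares of cells with *Penk*, with against without the state gene, had overlapping intervals in each of these cases. The negative signs with *Gzmd* under IL-2/21-Trikine and with *Nr4a1* under sIL-2 + IL-21 turned positive under other settings.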

How the results depend on the processing

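No paired analysis was possible because each treatment has 1 library. With no replicates, depth and the few cells that hold *Penk*, *Areg* and *Il4i1* limit every value. Of 90 library ratios recomputed under 6 alternatives, 51 lay inside the counting interval of the reported value, 38 moved outside it and 1, whose interval left out 0, changed sign. In the values below, the order of pairs is IL-2/21-Trikine over sIL-2, IL-2/21-Trikine over sIL-2 + IL-21, and sIL-2 + IL-21 over sIL-2, and the causes were not tested.

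The cap at 10 UMIs per cell, chosen after seeing the data, moved most ratios. It was set on unthinned UMIs, so it cut deeper cells at a lower CPM, and depth differed between libraries. *Penk* was 0.36 (reversed), 0.55 and -0.19, *Areg* -0.17, 0.47 and -0.65, *Nrn1* 1.02, 0.83 and 0.19, and *Spp1* -0.24, -1.06 and 0.82. With each cell weighted equally, *Nrn1* was 1.16, 0.85 and 0.31, *Spp1* -1.11, -1.43 and 0.32, *Penk* 0.69 and -0.83 in the last pairs, *Areg* 0.19 in the second pair, and *Il4i1* -0.087 and 0.26 in the first and last. Scaling by the median ratio over genes gave *Penk* -0.055 and -0.83, *Nrn1* 1.01 and 0.10, and *Spp1* -1.10 and 0.23 in the first and last pair. Without barcodes with myeloid or melanoma UMIs, *Spp1* was -1.15, -1.35 and 0.20. Without the 5% deepest barcodes, *Spp1* was -1.22, -1.51 and 0.29, *Nrn1* 0.86 and 0.10 and *Penk* 0.71 in the pairs with sIL-2 + IL-21, and *Il4i1* -0.50 in the second pair. Stricter limits on cells (1000 UMIs or more, 10% mitochondrial or less) moved none of the 15.

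For states, the smallest of the 3 ratios of *Spp1* with *Gzmd* (1.59) became 1.88 with 2 or more UMIs of the state gene, 1.35 at 5000 UMIs per cell, 1.65 without the deepest barcodes, 1.44 by a gene list and 1.49 with all UMIs of the same cells (a setting chosen after seeing the data). With *Tcf7* (-1.29) it became -2.12, -1.11, -0.34 by the list and -1.09 with all UMIs. Many ratios whose interval included 0 changed sign and are not listed. Of the ratios whose interval left out 0, those that changed sign were *Penk* with *Nr4a1* in sIL-2 + IL-21, at 0.27 (5000 UMIs), 0.027 (gene list) and 0.14 (all UMIs), and *Penk* with *Gzmd* in IL-2/21-Trikine, at 0.32 (gene list). *Areg* turned to 0.91 with *Tcf7* in sIL-2 (gene list), -0.043 with *Gzmd* in sIL-2 (2 or more UMIs) and 0.25 with *Mki67* in sIL-2 + IL-21 (5000 UMIs). *Nrn1* with *Tcf7* turned to 0.13 in sIL-2 and 0.0040 in IL-2/21-Trikine (gene list) and 0.034 there (all UMIs), and with *Nr4a1* to 0.00070 in sIL-2 + IL-21 (5000 UMIs). *Areg* with *Tcf7* under sIL-2 + IL-21 had 0 UMIs at the depth of the reported ratios and gave no ratio at that depth. Other settings gave log2 ratios of -1.16 (-1.87 to -0.52) at 5000 UMIs and -0.65 by the gene list. With all UMIs it was -3.93 (-6.21 to -2.38), from 3 UMIs in cells with *Tcf7* and 1277 in cells without. At 5000 UMIs the share went the other way, at 1.18% of cells with *Tcf7* against 0.927% without, with overlapping intervals.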
